A study of Mus musculus with 6 samples.

Results

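The transcription factor p53, encoded by Trp53, and 8 of its textbook target genes were followed through 3 cultures of mouse embryonic stem cells. The targets were Mdm2, Cdkn1a, Ccng1, Trp53inp1, Phlda3, Zmat3, Eda2r and Perp. The 9 genes were taken by symbol from the 19532 gene rows of the table, and all 9 held enough counts to be tested. Single cells were profiled by SORT-seq, a plate method that reads the 3′ ends of transcripts and counts each molecule once through a random tag (unique molecular identifier, UMI). R1 and IB10, established mouse embryonic stem cell lines, each gave 1 library per culture, so there were 6 libraries of 188 wells.

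Primed_4d cells had 4 days of 12 ng/ml FGF2, 20 ng/ml human Activin A and 2 µM IWP2, which blocks the secretion of WNT proteins. Rosette_LIM cells had 2 µM IWP2 and 0.1 µM of the MEK inhibitor PD325901 for 5 passages in IB10 and 6 in R1. LIF_2i cells, the naive reference culture, had 3 µM CHIR99021, a GSK3 inhibitor that activates WNT signalling, and 0.1 µM PD325901. All 3 cultures contained LIF in serum-free N2B27 medium, so primed_4d was the culture without a MEK inhibitor and LIF_2i the culture with WNT signalling activated. IB10 cells were at passage 28 in primed_4d, 33 in rosette_LIM and 28 in LIF_2i, and R1 cells at 24, 28 and 24. Passage and culture therefore cannot be told apart for rosette_LIM. Each library is a single culture of a single line, and no agent that damages DNA is named in the labels.

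The protein p53 is made continuously and is degraded through the ubiquitin ligase Mdm2. Stress or DNA damage stabilises the protein, which then binds a palindromic response element and switches on genes for cell cycle arrest, DNA repair, metabolism and cell death. Mdm2 is itself a target, which closes a negative feedback loop. Mouse embryonic stem cells are known for abundant Trp53 mRNA and a weak G1 checkpoint. The present counts measure mRNA only, so the amount and activity of the protein were not measured.

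Promoter sequences were matched by symbol in a RefSeq table of the GRCm38.p6 build, which held 6 of the 9 genes in 7 windows, each with 250 bases before and 50 after an annotated start. The response element was searched as its 20-base consensus, a pair of adjoining 10-base elements with at most 1 mismatch. The consensus is palindromic, so a search of the given strand covers both strands. It was found in 2 of the 7 windows, the upstream Cdkn1a window and that of Ccng1, and in 29 of all 32851 windows of this length (0.0883%). These windows are printed because Cdkn1a and Ccng1 moved in opposite directions between primed_4d and LIF_2i while both hold a match. The Cdkn1a change between these cultures rested on R1. The second Cdkn1a start and Mdm2 are printed beside them as windows without a match. Capitals mark the matched 20 bases, all sequences run 5′ to 3′ on the strand of the gene, and a match is a description of letters, not of binding.
Cdkn1a, upstream start, chr17:29090729-29091028, plus strand: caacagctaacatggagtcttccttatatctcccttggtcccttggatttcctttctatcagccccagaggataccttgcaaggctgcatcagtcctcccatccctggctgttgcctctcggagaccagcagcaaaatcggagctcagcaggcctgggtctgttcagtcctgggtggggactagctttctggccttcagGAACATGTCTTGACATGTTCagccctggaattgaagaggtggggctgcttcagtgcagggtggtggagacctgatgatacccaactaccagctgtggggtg
Cdkn1a, downstream start, chr17:29093519-29093818, plus strand: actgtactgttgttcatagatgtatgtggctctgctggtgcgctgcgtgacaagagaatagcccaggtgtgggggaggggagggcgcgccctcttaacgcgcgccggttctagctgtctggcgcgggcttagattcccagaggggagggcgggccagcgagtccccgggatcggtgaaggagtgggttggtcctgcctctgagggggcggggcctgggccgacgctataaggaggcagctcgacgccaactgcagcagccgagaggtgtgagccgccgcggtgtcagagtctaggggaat
Ccng1, chr11:40755237-40755536, minus strand: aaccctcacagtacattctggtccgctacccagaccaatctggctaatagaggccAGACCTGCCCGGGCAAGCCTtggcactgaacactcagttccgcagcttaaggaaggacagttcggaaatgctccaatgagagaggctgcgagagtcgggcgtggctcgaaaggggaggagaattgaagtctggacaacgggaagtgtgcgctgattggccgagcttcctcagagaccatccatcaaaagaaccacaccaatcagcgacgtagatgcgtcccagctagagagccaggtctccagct
Mdm2, chr10:117710709-117711008, minus strand: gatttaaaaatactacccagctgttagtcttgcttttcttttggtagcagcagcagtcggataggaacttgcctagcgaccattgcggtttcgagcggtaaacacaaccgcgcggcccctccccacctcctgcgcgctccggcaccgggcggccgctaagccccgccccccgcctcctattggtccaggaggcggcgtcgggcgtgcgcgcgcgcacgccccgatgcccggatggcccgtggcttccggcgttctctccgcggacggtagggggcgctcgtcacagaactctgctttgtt

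The Cdkn1a match begins 51 bases before the annotated start and has 1 mismatch, and the Ccng1 match begins 195 bases before its start, also with 1 mismatch. The Cdkn1a match also holds a pair of CATG cores with 6 bases between them, a palindromic arrangement that can lie inside the consensus, which 234 of the 32851 windows hold (0.712%). No match in the windows of Mdm2, Trp53, Phlda3, Eda2r or the downstream Cdkn1a start says only that these letters are not in these bases. Trp53inp1, Zmat3 and Perp had no entry. Counts of 3′ ends do not show which start a Cdkn1a transcript used.

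The genes lie apart in the genome. On GRCm38 with the GENCODE M21 annotation, Trp53 spans chr11:69580359-69591873, Ccng1 chr11:40748552-40755311, Mdm2 chr10:117688875-117710758 and Perp chr10:18845020-18857073. Cdkn1a spans chr17:29090976-29100727, Trp53inp1 chr4:11156431-11174379 and Phlda3 chr1:135766119-135769136. Zmat3 spans chr3:32334792-32366014 and Eda2r chrX:97333840-97377216. The annotated overlap with another gene was that of Cdkn1a with AC167363.2 on the opposite strand, over 1046 bases; AC167363.2 is not a row of the table.

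The libraries held 4675388 to 7806882 UMIs, with medians of 11285 to 41501 UMIs per well. The R1 primed_4d library had the lowest total and 84 of 188 wells under 6000 UMIs, against 4 to 38 such wells in the other libraries. The labelled states were checked by marker genes. The summed level of 5 naive markers was 131 to 185 CPM in primed_4d, 1110 to 1117 CPM in rosette_LIM and 1308 to 1638 CPM in LIF_2i, and that of 5 formative and primed markers was 1262 to 1283, 118 to 152 and 127 to 154 CPM. CPM are counts scaled to a common library size with TMM factors. Dnmt3b alone held 823 and 862 CPM of the formative and primed sums in primed_4d, and single markers of that list went different ways. Otx2 had 15.2 CPM in IB10 and 13.4 CPM in R1 in rosette_LIM, against 3.85 and 1.72 CPM in LIF_2i. Dnmt3b had 56.3 and 32.5 CPM against 89.8 and 76.0 CPM. In that comparison edgeR called 2 of the 5 formative and primed markers higher and 1 lower, beside 5.54% of all genes called. Of the 5 naive markers it called 1 lower. Klf4, Esrrb and Tfcp2l1 were lower in rosette_LIM than in LIF_2i in both lines. Nr0b1 was higher in both (174 CPM in IB10 and 123 CPM in R1 against 146 and 89.7 CPM), and Tbx3 was higher in R1 alone. The 5 feeder fibroblast markers summed to 11.1 to 11.4 CPM in primed_4d, 3.32 to 8.87 CPM in rosette_LIM and 6.01 to 7.31 CPM in LIF_2i, with Col3a1 at 0 in every library. Thy1 alone held 10.2 CPM in IB10 and 9.20 CPM in R1 of the primed_4d sums. Col1a1 went the other way, with 0.948 and 1.07 CPM in primed_4d against 2.31 and 1.43 CPM in LIF_2i. Col1a2 and Postn had 5 and 1 UMIs in all. The 6 primitive endoderm markers summed to 7.39 to 14.3, 6.25 to 8.53 and 5.77 to 7.15 CPM, and the 5 markers of 2-cell-like cells to 8.34 to 20.96, 1.04 to 9.38 and 3.33 to 16.2 CPM, with Zscan4f at 0. Of the endoderm markers, Dab2, Gata4 and Sox7 were higher in primed_4d than in LIF_2i in both lines, and Gata6, Sox17 and Pdgfra were lower. The part of feeder, endoderm or 2-cell-like cells in the results was not tested. The 7 dissociation and heat stress genes summed to 100 to 131 CPM in primed_4d, 89.5 to 104 CPM in rosette_LIM and 85.8 to 100 CPM in LIF_2i; Dnajb1 alone held 54.0 to 59.5, 77.6 to 82.1 and 69.3 to 85.3 CPM of these sums.

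Trp53 itself was called in no comparison, under any of the alternatives run. It had 400 CPM in IB10 and 365 CPM in R1 in primed_4d, 462 and 417 CPM in rosette_LIM, and 402 and 370 CPM in LIF_2i. The primed_4d and LIF_2i libraries overlapped, and both rosette_LIM libraries lay above all others. Its log2 fold change (± SE, n = 2 libraries per culture) was −0.01 ± 0.10 in primed_4d against LIF_2i. It was 0.19 ± 0.10 in rosette_LIM against LIF_2i and −0.20 ± 0.10 in primed_4d against rosette_LIM. None passed, with edgeR adjusted p of 0.932, 0.326 and 0.137 over 12098 genes. Each SE of a fold change is the absolute log2 fold change over the square root of edgeR's quasi-likelihood F, fitted on all 6 libraries. The within-line differences were of similar size in both lines: for rosette_LIM against LIF_2i the log2 ratio was 0.20 in IB10 and 0.17 in R1.

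Mdm2, the ligase that degrades p53, was higher in primed_4d and in rosette_LIM than in LIF_2i. It had 181 CPM in IB10 and 167 CPM in R1 in primed_4d, 139 and 157 CPM in rosette_LIM, and 108 and 108 CPM in LIF_2i. The 3 cultures did not overlap. The LIF_2i libraries had an SD of 0.191 CPM, but with 2 libraries, of 842 and 753 Mdm2 UMIs, so small a value says little about spread. Mdm2 rose 1.61-fold in primed_4d against LIF_2i (log2 0.69 ± 0.12, edgeR adjusted p = 0.000326) and 1.37-fold in rosette_LIM against LIF_2i (0.46 ± 0.12, edgeR adjusted p = 0.0342). Primed_4d against rosette_LIM gave 0.23 ± 0.12 (edgeR adjusted p = 0.137). The rise in primed_4d passed under all 16 alternative analyses. That in rosette_LIM passed under 11, and its value was 0.33 (edgeR adjusted p = 0.225) without the R1 rosette_LIM library. It was also lost without either LIF_2i library, and with no block for the cell line (0.46, edgeR adjusted p = 0.0801).

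Ccng1, cyclin G1, which recruits a phosphatase to Mdm2, followed the same order. It had 369 CPM in IB10 and 363 CPM in R1 in primed_4d, 269 and 329 CPM in rosette_LIM, and 249 and 222 CPM in LIF_2i. The cultures did not overlap. The rise in primed_4d against LIF_2i was 1.55-fold (0.64 ± 0.12, edgeR adjusted p = 0.000729), and it was lost without the R1 LIF_2i library (0.49, edgeR adjusted p = 0.0721). Rosette_LIM against LIF_2i gave 0.34 ± 0.12 (edgeR adjusted p = 0.122), with a ratio of 0.11 in IB10 and 0.57 in R1. Primed_4d against rosette_LIM gave 0.29 ± 0.12 (edgeR adjusted p = 0.0671).

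Trp53inp1, a nuclear stress protein that promotes p53 phosphorylation and autophagy, was higher in primed_4d. It had 205 CPM in IB10 and 135 CPM in R1 in primed_4d, 126 and 128 CPM in rosette_LIM, and 119 and 108 CPM in LIF_2i. The IB10 primed_4d library stood far above the other 5, and the R1 library lay just above the rosette_LIM pair. The rise was 1.48-fold against LIF_2i (0.57 ± 0.14, edgeR adjusted p = 0.0050) and 1.32-fold against rosette_LIM (0.40 ± 0.14, edgeR adjusted p = 0.0377). Without the IB10 primed_4d library the values were 0.28 (edgeR adjusted p = 0.177) and 0.12 (edgeR adjusted p = 0.602). The first call was also lost without either LIF_2i library, and the second passed in 9 of 16 alternatives; with no block for the cell line it was 0.42 (edgeR adjusted p = 0.0903). Rosette_LIM against LIF_2i gave 0.17 ± 0.14 (edgeR adjusted p = 0.559).

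Cdkn1a encodes p21, the inhibitor of cyclin-dependent kinases that carries most of the arrest downstream of p53. Of the 9 genes, it was the 1 called lower. It had 116 CPM in IB10 and 92.0 CPM in R1 in primed_4d, 57.8 and 100 CPM in rosette_LIM, and 122 and 222 CPM in LIF_2i. Every primed_4d and rosette_LIM library lay below both LIF_2i libraries, but IB10 primed_4d did so by a small margin and R1 LIF_2i stood far above the rest. Cdkn1a was 2.16-fold lower in rosette_LIM than in LIF_2i (−1.11 ± 0.21, edgeR adjusted p = 0.0055) and 1.57-fold lower in primed_4d (−0.65 ± 0.21, edgeR adjusted p = 0.0234).

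The lines showed the lower Cdkn1a of rosette_LIM alike. Within IB10 the log2 ratio was −1.08 (counting interval −1.27 to −0.89, at a level of 95%), and within R1 it was −1.15 (−1.29 to −1.01). For primed_4d against LIF_2i they differed: −0.08 (−0.23 to 0.07) in IB10 and −1.27 (−1.43 to −1.12) in R1. The primed_4d call therefore rested on R1: without the R1 primed_4d library the value was −0.10 (edgeR adjusted p = 0.691), and without the R1 LIF_2i library it was −0.33 (edgeR adjusted p = 0.449). Without that last library rosette_LIM against LIF_2i was −0.77 (edgeR adjusted p = 0.355). DESeq2 called neither difference (−1.12, adjusted p = 0.258, and −0.63, adjusted p = 0.357), nor did edgeR with no block for the cell line (−1.12, adjusted p = 0.0708, and −0.73, adjusted p = 0.0716).

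A pair of very deep wells of the R1 LIF_2i library held 4.55% and 10.4% of its Cdkn1a UMIs, beside 5.13% and 8.60% of all its UMIs. With wells over 200000 UMIs left out, the Cdkn1a values were −1.10 (edgeR adjusted p = 0.0108) for rosette_LIM and −0.63 (edgeR adjusted p = 0.0333) for primed_4d. With wells under 6000 UMIs left out, which concerns R1 primed_4d most, the primed_4d value was −0.65 (edgeR adjusted p = 0.0196). Primed_4d against rosette_LIM gave 0.47 ± 0.22 (edgeR adjusted p = 0.106). The ratio there was 1.00 (0.80 to 1.20) in IB10 and −0.12 (−0.31 to 0.06) in R1.

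Zmat3, a zinc finger protein that binds RNA, was higher in primed_4d than in both other cultures. It had 88.3 CPM in IB10 and 97.3 CPM in R1 in primed_4d, 59.6 and 69.6 CPM in rosette_LIM, and 60.3 and 62.7 CPM in LIF_2i. Both primed_4d libraries stood above all others, while rosette_LIM and LIF_2i overlapped. The rise was 1.51-fold against LIF_2i (0.59 ± 0.13, edgeR adjusted p = 0.00191) and 1.44-fold against rosette_LIM (0.52 ± 0.13, edgeR adjusted p = 0.00521). The second passed under all 16 alternatives, and the first was lost without the R1 LIF_2i library (0.53, edgeR adjusted p = 0.0873).

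Eda2r, a receptor of the TNF receptor family that binds ectodysplasin A2, had the largest rise among the 9 genes. It had 71.3 CPM in IB10 and 56.9 CPM in R1 in primed_4d, 35.6 and 49.8 CPM in rosette_LIM, and 34.8 and 33.9 CPM in LIF_2i. The cultures did not overlap, although IB10 rosette_LIM lay close to LIF_2i. Eda2r rose 1.87-fold against LIF_2i (0.90 ± 0.17, edgeR adjusted p = 0.000907), under all 16 alternatives, and it also rose against rosette_LIM (0.59 ± 0.18, edgeR adjusted p = 0.0170). The second rise was 1.00 in IB10 and 0.19 in R1, and it was lost without the IB10 primed_4d library (0.32, edgeR adjusted p = 0.273) or the IB10 rosette_LIM library (0.28, edgeR adjusted p = 0.284). Rosette_LIM against LIF_2i gave 0.31 ± 0.18 (edgeR adjusted p = 0.360).

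Phlda3, a pleckstrin homology protein that represses the kinase Akt, and Perp, a membrane protein of desmosomes and p53-dependent cell death, were called in no comparison of the edgeR fit. Of the alternatives, 3 of 15 called Phlda3 in IB10 against R1 (lowest adjusted p = 0.0242) and 1 of 16 called Perp in primed_4d against rosette_LIM (without the R1 rosette_LIM library, 1.04, edgeR adjusted p = 0.0378). Phlda3 had 48.9 CPM in IB10 and 65.0 CPM in R1 in primed_4d, 40.4 and 55.7 CPM in rosette_LIM, and 51.3 and 71.7 CPM in LIF_2i. The IB10 library was the lower of the pair in each culture, and the cultures overlapped. Rosette_LIM against LIF_2i gave −0.35 ± 0.13 for Phlda3 (edgeR adjusted p = 0.150), with −0.34 in IB10 and −0.36 in R1. Perp was the rarest, with 52 UMIs (9.86 CPM) in IB10 and 66 UMIs (14.1 CPM) in R1 in primed_4d, 29 (5.67 CPM) and 71 (12.4 CPM) in rosette_LIM, and 79 (10.1 CPM) and 54 (7.72 CPM) in LIF_2i. Its cultures overlapped, and its SE of 0.31 to 0.32 was the widest of the 9 genes.

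**Figure D1:**
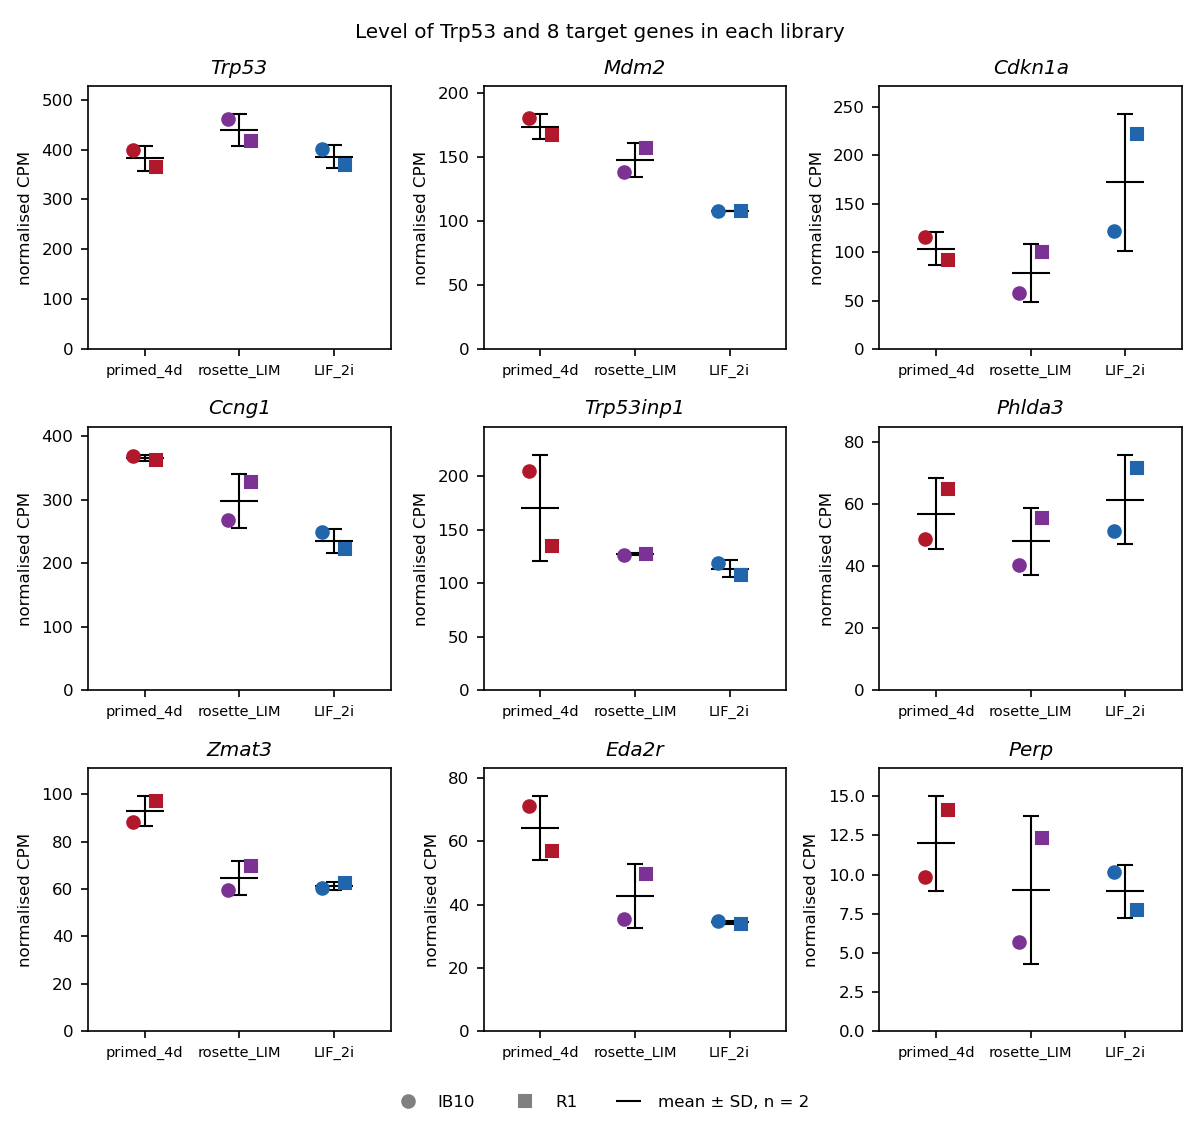
Levels of Trp53 and 8 target genes in CPM (vertical axes, each from 0) in primed_4d, rosette_LIM and LIF_2i. Points are single libraries (circles IB10, squares R1), and lines with bars are the mean ± SD of 2 libraries; the R1 LIF_2i library stands out for Cdkn1a at 222 CPM, and both primed_4d libraries stand highest for Zmat3 and Ccng1.

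Counted together, 5 of the 9 genes rose and 1 fell in primed_4d against LIF_2i, where 37.9% of all 12098 genes were called, 18.3% higher and 19.6% lower. The median log2 fold change of the 9 was 0.57, against −0.01 for all genes. In primed_4d against rosette_LIM 3 rose and none fell (36.1% of all genes called, 17.1% higher and 19.0% lower; edgeR), and the median was 0.40, against 0.00 for all genes. At an unadjusted p under 0.05 that comparison held 5 of the 9. Every called gene also passes that threshold, so the share of all genes there is at least 36.1%. DESeq2 called 1 of the 9 and 2702 of all 12098 genes. In rosette_LIM against LIF_2i Mdm2 rose and Cdkn1a fell (5.54% of all genes called, 3.19% higher and 2.35% lower), with a median of 0.17 against 0.00. The cultures did not overlap for 6 genes in each of these 3 comparisons, against 68.3%, 65.5% and 48.5% of all genes. Stress genes moved beside this: of the 7 dissociation and heat stress genes, 4 rose in primed_4d against LIF_2i (Egr1, Jun, Atf3 and Hspa1a) and Dnajb1 fell, with a list median of 1.29. Egr1 had 24.6 CPM in IB10 and 24.8 CPM in R1 in primed_4d, 0.586 and 1.04 CPM in rosette_LIM, and 0 and 0.715 CPM in LIF_2i. Fos and Hspa1b were not called, and Hspa1a had 9 UMIs in IB10 and 24 in R1 in primed_4d, against 5 and 6 in LIF_2i. Primed_4d alone lacked the MEK inhibitor, so handling stress and the change of medium cannot be told apart for these genes. The part of the 7 stress genes in the rise of the 9 was not tested. The comparisons share libraries, so they are not independent of each other. In the fit, Cdkn1a moved against Mdm2, Ccng1, Trp53inp1, Zmat3 and Eda2r in primed_4d against LIF_2i. Its fall there rested on R1, with 92.0 CPM against 222 CPM, while IB10 had 116 CPM against 122 CPM.

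**Figure D2:**
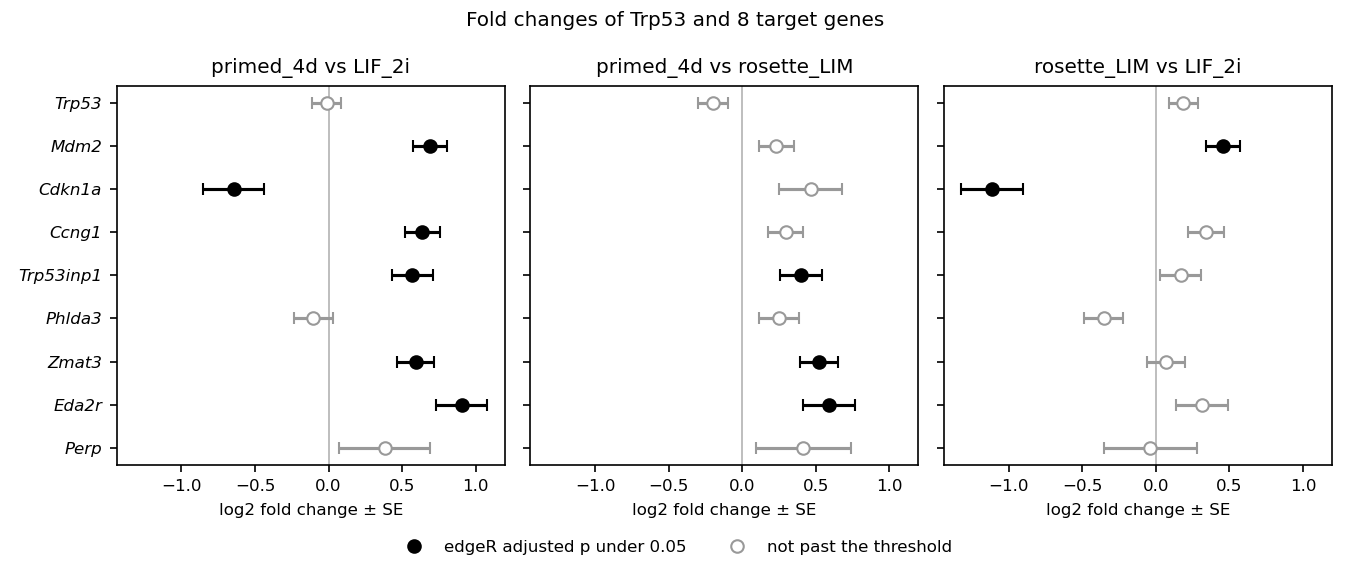
Log2 fold changes (horizontal axes) of Trp53 and 8 target genes, points with SE bars, in primed_4d against LIF_2i, primed_4d against rosette_LIM and rosette_LIM against LIF_2i. Filled points passed edgeR's adjusted p of 0.05; Cdkn1a lies left of 0 against LIF_2i, at −0.65 and −1.11, while Eda2r reaches 0.90.

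Between the lines, IB10 against R1, edgeR called 0 of the 9 genes (0.752% of all genes called). DESeq2 called 0 and edgeR with no filter on low counts called 2. At an unadjusted p under 0.05 were 3 of the 9, and the share of all genes there was not counted. The 0.752% is at adjusted p, so these 3 have no background to be read against. Phlda3 averaged 46.9 ± 5.71 CPM in IB10 and 64.1 ± 8.03 CPM in R1 (SD, n = 3 each), and it was the 1 gene of the 9 whose lines did not overlap (5.74% of all genes). Its difference was −0.45 ± 0.11 (edgeR adjusted p = 0.0779). Cdkn1a averaged 98.6 ± 35.4 CPM in IB10 and 138 ± 72.9 CPM in R1, a difference of −0.45 ± 0.17 (edgeR adjusted p = 0.312). Trp53inp1 gave 0.25 ± 0.11 (edgeR adjusted p = 0.465).

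The wells show how these levels were spread over cells. Each well was thinned to 5000 UMIs and shallower wells were left out, which kept 174 IB10 and 104 R1 wells in primed_4d, 151 and 179 in rosette_LIM, and 184 and 161 in LIF_2i. Intervals are exact binomial at a level of 95% and cover counting error only. A Cdkn1a UMI was found in 33.3% of IB10 wells (26.4 to 40.9%) and 29.8% of R1 wells (21.2 to 39.6%) in primed_4d. The share was 16.6% (11.0 to 23.5%) and 45.8% (38.4 to 53.4%) in rosette_LIM, and 92 of 184 wells (42.6 to 57.4%) and 59.6% (51.6 to 67.3%) in LIF_2i. Unthinned, the shares were 63.8% and 46.8% of all 188 wells in primed_4d, 55.9% and 84.0% in rosette_LIM, and 94.1% and 86.2% in LIF_2i.

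In IB10, fewer primed_4d wells than LIF_2i wells held a Cdkn1a UMI although the summed levels were close. Among wells of at least 6000 UMIs, the median Cdkn1a level was 61.7 CPM in IB10 and 39.9 CPM in R1 in primed_4d, 33.4 and 77.8 CPM in rosette_LIM, and 110 and 189 CPM in LIF_2i. The well at the 90th percentile of IB10 stood at 292 CPM in primed_4d and 222 CPM in LIF_2i, and the highest at 722 and 474 CPM. These CPM come from unthinned wells, and the cultures differ in depth. The median over all wells was 27390 UMIs in IB10 and 11285 in R1 in primed_4d, against 41501 and 32931 in LIF_2i. The part of depth in these levels was not tested. The variance of Cdkn1a over thinned IB10 wells was 1.58 times its mean in primed_4d and 1.28 times in LIF_2i at 5000 UMIs, and 1.93 and 1.08 times at 10000 UMIs. Over R1 wells the order turned with the depth: 1.15 times in primed_4d and 1.38 times in LIF_2i at 5000 UMIs, but 2.19 and 1.80 times at 10000 UMIs.

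**Figure D3:**
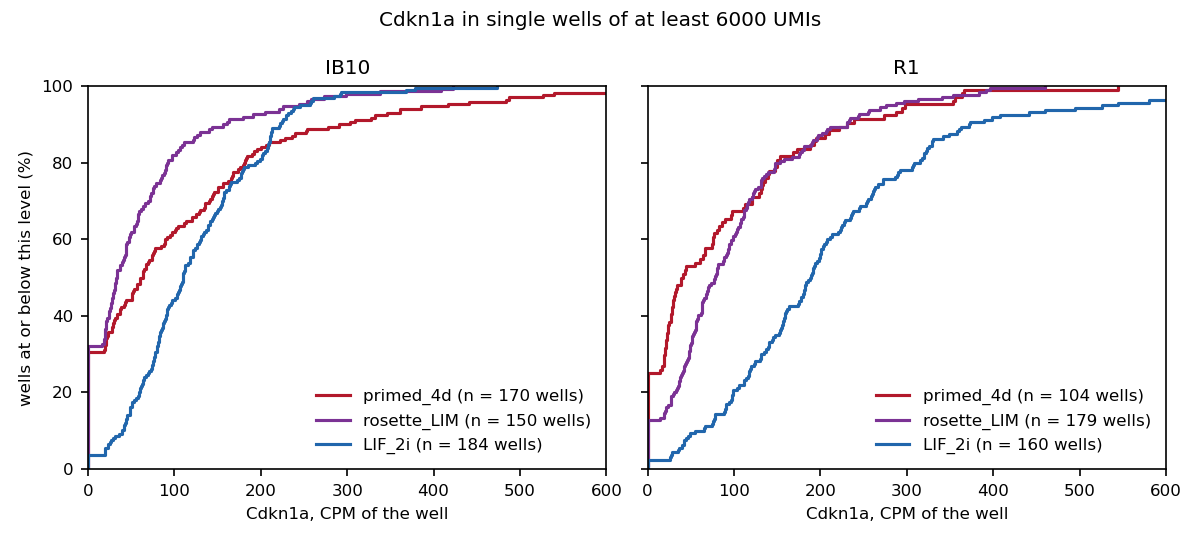
Share of wells (vertical axis, %) at or below a given Cdkn1a level (horizontal axis, CPM of the well, drawn to 600) for wells of at least 6000 UMIs, IB10 left and R1 right, 1 line per culture. In IB10 the primed_4d line starts well above the LIF_2i line and crosses it near 200 CPM, and in R1 it stays above the LIF_2i line throughout. The wells are not thinned to a common depth, and depth differs between the cultures.

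Eda2r at 5000 UMIs was found in 32.2% of IB10 wells (25.3 to 39.7%) and 26.0% of R1 wells (17.9 to 35.5%) in primed_4d, in 18.5% and 20.7% in rosette_LIM, and in 14.7% (9.90 to 20.6%) and 13.7% (8.77 to 20.0%) in LIF_2i. Trp53inp1 was found in 60.9% and 51.0% of wells in primed_4d, 41.1% and 36.9% in rosette_LIM, and 45.7% and 40.4% in LIF_2i. The Ccng1 shares were 77.0% and 76.9% in primed_4d, 65.6% and 75.4% in rosette_LIM, and 64.7% and 65.2% in LIF_2i. Mdm2 was found in 87 of 174 IB10 wells and 48.1% of R1 wells in primed_4d, 49.7% and 51.4% in rosette_LIM, and 40.8% and 42.9% in LIF_2i. Zmat3 was found in 37.4% and 36.5% of primed_4d wells, 22.5% and 31.3% of rosette_LIM wells, and 16.3% and 33.5% of LIF_2i wells, and its R1 intervals overlapped between cultures. Trp53 was found in 82.1% to 88.8% of the wells of every library, and Perp in 3.31% to 7.82%.

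**Figure D4:**
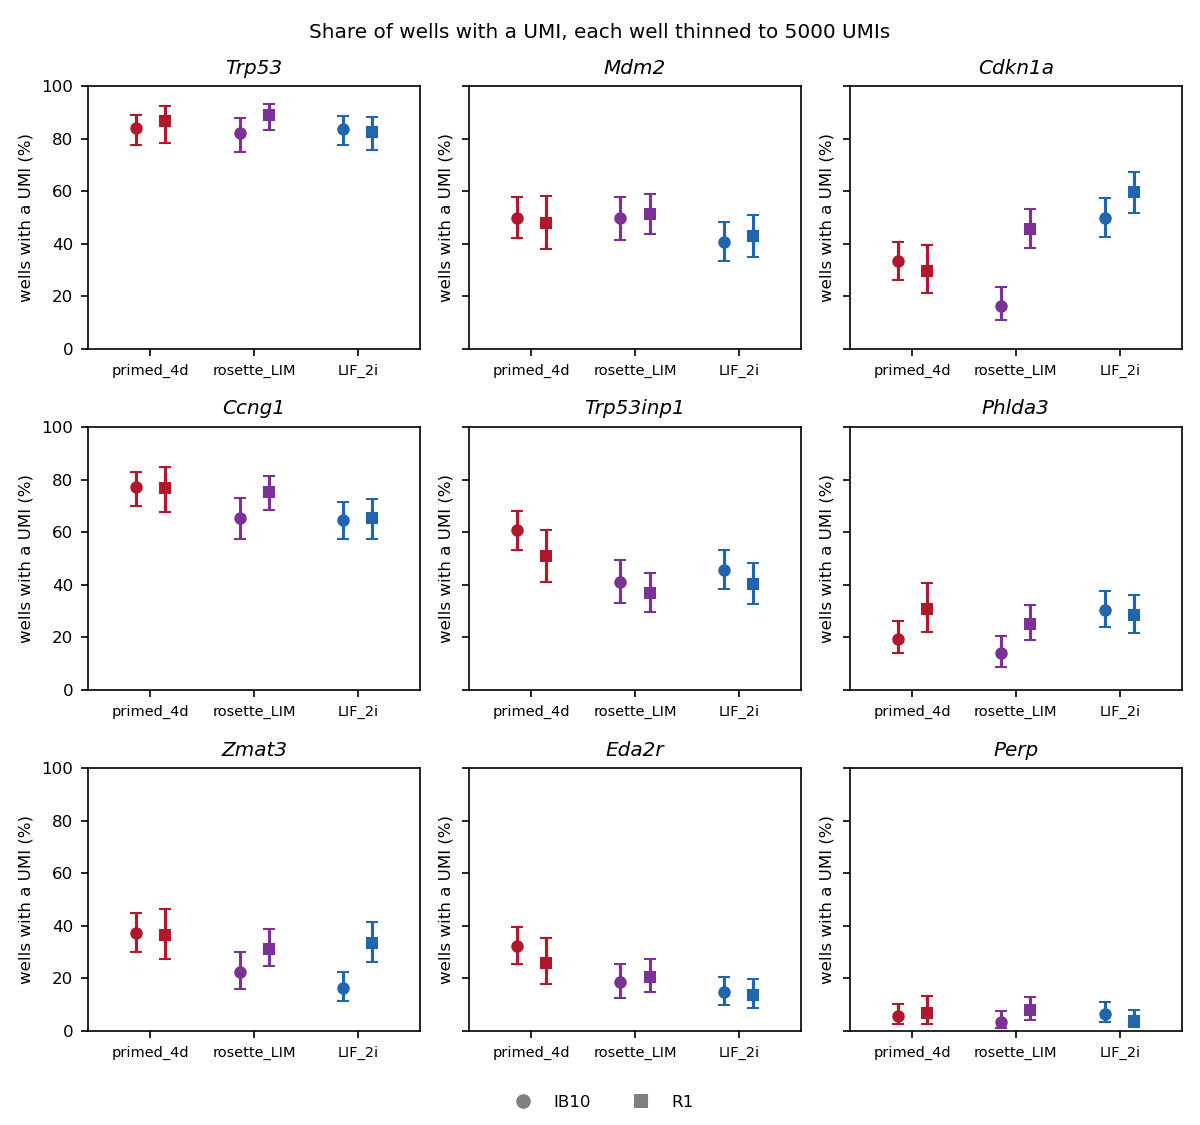
Share of wells (vertical axes, %) with at least 1 UMI of each gene after thinning to 5000 UMIs, for primed_4d, rosette_LIM and LIF_2i; circles are IB10 and squares R1, with exact binomial bars at a level of 95%. Cdkn1a spans 16.6% to 59.6% of wells, and Trp53 stays between 82.1% and 88.8%.

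Within a library, correlations between the 9 genes from well to well at 5000 UMIs ran from −0.13 to 0.53 (Pearson r). The highest were those of Phlda3 and Perp (0.53) and of Trp53inp1 and Perp (0.49), both in IB10 rosette_LIM. Perp had a UMI in 5 of the 151 wells of that library, so both values rest on few wells. Over the 6 libraries these pairs ranged from 0.03 and 0.04 upwards. Mdm2 and Trp53inp1 had an r of 0.08 to 0.32 over the 6 libraries (104 to 184 wells each), Ccng1 and Trp53inp1 0.15 to 0.37, and Mdm2 and Ccng1 0.02 to 0.41. Trp53 with each target lay between −0.13 and 0.19, Zmat3 with the other genes between −0.11 and 0.29, and Mdm2 and Zmat3 between −0.07 and 0.15. The counts are sparse and the wells of a library share its preparation, so these values are a description. Across the 6 libraries, which share lines and cultures, log2 levels gave a Pearson r of 0.96 for Mdm2 and Ccng1, 0.94 for Ccng1 and Eda2r, 0.91 for Mdm2 and Eda2r, 0.75 for Cdkn1a and Phlda3, and −0.91 for Trp53 and Phlda3.

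The genes with the most similar profile over the 6 libraries were sought among 6275 tested genes of at least 20 CPM, by Pearson r of log2(CPM + 1), with 2 named per gene. For Zmat3 they were Ptbp2, a splicing regulator, and the p53 target Bax (r = 0.996 each). For Eda2r they were the p53 target Plk2 and Lin7c (r = 0.990 and 0.988), and for Mdm2 B230219D22Rik and the splicing factor Srsf3 (r = 0.994 each). Ccng1 had Dtx3 and Apoo (0.992 and 0.991), Trp53inp1 March6 and Mocs2 (0.995 and 0.992), and Cdkn1a Uhrf1bp1 and Klf16 (0.990 and 0.985). Trp53 had Fancg and Mdh1 (0.985 and 0.981), Phlda3 Tnpo2 and Alad (0.981 and 0.979), and Perp Cers5 and Socs6 (0.965 and 0.960). With 6 libraries high values are common: 143 genes exceeded 0.95 for Zmat3 and 8 for Cdkn1a.

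Some other targets of p53 changed more than any of the 8 above, but their list is longer. Its median was below that of the 9 genes in each comparison of cultures. Of 35 listed, 34 were found and 32 tested; Fas and Ddb2 had 11 and 14 UMIs in all and were not. In primed_4d against LIF_2i 11 of the 32 rose and 4 fell, where 18.3% of all genes rose and 19.6% fell, with a median of 0.20, against −0.01 for all genes. Pmaip1 (Noxa), a BH3-only protein that triggers mitochondrial cell death, had 25.0 CPM in IB10 and 30.4 CPM in R1 in primed_4d, 1.95 and 8.35 CPM in rosette_LIM, and 2.69 and 3.43 CPM in LIF_2i. It rose 9.11-fold against LIF_2i (3.19 ± 0.34, edgeR adjusted p = 3.99e-06). Bbc3 (Puma), of the same class, had 53.1 and 52.8 CPM in primed_4d, 15.8 and 15.8 CPM in rosette_LIM, and 15.9 and 13.4 CPM in LIF_2i, and it rose (log2 1.85 ± 0.17, edgeR adjusted p = 9.51e-07). Both kept the call under all 16 alternatives.

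The rise of Bax, the pore-forming protein on which BH3-only proteins act, was smaller. It had 274 CPM in IB10 and 294 CPM in R1 in primed_4d, 202 and 225 CPM in rosette_LIM, and 195 and 204 CPM in LIF_2i (0.51 ± 0.11 against LIF_2i, edgeR adjusted p = 0.00144). Gadd45a, a growth arrest gene, had 131 and 53.9 CPM in primed_4d, 54.3 and 34.3 CPM in rosette_LIM, and 44.3 and 20.7 CPM in LIF_2i. It was higher in IB10 than in R1 in each culture (1.02 ± 0.13, edgeR adjusted p = 0.00236), and rose by 1.48 ± 0.16 against LIF_2i (edgeR adjusted p = 4.38e-06). Also higher in primed_4d were Ddit4l, an inhibitor of mTORC1 (1.47), and the polo-like kinases Plk3 (1.60) and Plk2 (1.08).

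Of the 4 targets that fell in primed_4d against LIF_2i, 3 are named by rule. Tigar, a phosphatase that lowers glycolytic flux, had 49.1 CPM in IB10 and 48.6 CPM in R1 in primed_4d, 111 and 112 CPM in rosette_LIM, and 114 and 103 CPM in LIF_2i. It fell by 1.15 ± 0.13 (edgeR adjusted p = 5.83e-06). The adenylate kinase Ak1 fell by 1.01 ± 0.14 and Sesn1, a sestrin that restrains mTORC1, by 1.05 ± 0.19 (edgeR adjusted p of 5.65e-05 and 0.000466). The calls of Tigar, Ak1 and Sesn1 held under all 16 alternatives.

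Against rosette_LIM 7 of the 32 rose in primed_4d and 5 fell, with a median of 0.13, against 0.00 for all genes. As 36.1% of all genes were called (17.1% higher, 19.0% lower), these 12 of 32 are close to the background. Bbc3 (1.74), Pmaip1 (2.48), Ddit4l (1.47), Gadd45a (0.98), Ercc5 (0.87), Plk2 (0.64) and Bax (0.41) rose, and Tigar (−1.19), Ak1 (−1.14) and Sesn1 (−1.21) were among those that fell. In rosette_LIM against LIF_2i 1 of 32 was called (5.54% of all genes), Plk3, which rose by 1.43 ± 0.24 (edgeR adjusted p = 0.00286). At an unadjusted p under 0.05 were 6 of the 32, and the share of all genes there was not counted. The 5.54% is at adjusted p, so these 6 have no background to be read against. Plk3 had 23.3 and 28.7 CPM in primed_4d, 28.9 and 17.9 CPM in rosette_LIM, and 8.72 and 8.44 CPM in LIF_2i. The stress genes that rose in primed_4d moved beside these targets too, and their part was not tested.

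Of 20 regulators of p53, 4 rose and 3 fell in primed_4d against LIF_2i, and 5 rose and 2 fell against rosette_LIM. These 7 of 20 in each comparison stand beside 37.9% and 36.1% of all genes called, so their number does not set the regulators apart. Mdm4, the relative of Mdm2 that binds and inhibits p53 without degrading it, had 8.15 CPM in IB10 and 7.06 CPM in R1 in primed_4d, 21.9 and 23.8 CPM in rosette_LIM, and 18.3 and 18.3 CPM in LIF_2i. It fell 2.40-fold against LIF_2i (−1.26 ± 0.22, edgeR adjusted p = 0.000387) and 2.99-fold against rosette_LIM (−1.58 ± 0.22, edgeR adjusted p = 6.18e-05), under all 16 alternatives each. Mdm2 and Mdm4 thus moved in opposite directions in primed_4d against LIF_2i.

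Cop1, another ubiquitin ligase of p53, rose by 0.49 ± 0.13 against LIF_2i and by 0.66 ± 0.13 against rosette_LIM (edgeR adjusted p of 0.00809 and 0.00129). The ribosomal proteins Rpl11 (0.35) and Rpl5 (0.28), which bind Mdm2, and the p53-binding Trp53bp2 (0.50) also rose against LIF_2i; ribosomal protein genes have pseudogene copies that can share reads. Cdkn2a, the locus of the Mdm2 inhibitor Arf, fell by 0.62 ± 0.19 and the deubiquitinase Usp7 by 0.27 ± 0.10 (edgeR adjusted p of 0.0203 and 0.0499). Of these calls against LIF_2i, those of Cop1 and Rpl11 held in 13 of 16 alternatives, Cdkn2a in 10, Rpl5 and Usp7 in 8 and Trp53bp2 in 7. Counts of 3′ ends do not separate the Arf and Ink4a transcripts of Cdkn2a. Against rosette_LIM, the damage kinases Atm (0.44), Atr (0.43) and Chek2 (0.41) and the p53 inhibitor Ppp1r13l (0.67) rose, and Usp7 (−0.32) fell. These calls held in 10 of 16 alternatives for Atm and Ppp1r13l, 9 for Chek2 and Usp7 and 7 for Atr, and in all 16 for Cop1. In rosette_LIM against LIF_2i 1 regulator of 20, Chek2, fell by 0.54 ± 0.14 (edgeR adjusted p = 0.0422), against 5.54% of all genes called; the call held in 7 of 16 alternatives, with adjusted p up to 0.547.

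Of the p53 relatives, Trp63 had 7 UMIs in all and was not tested. Trp73 had 9.67 CPM in IB10 and 8.98 CPM in R1 in primed_4d, 12.1 and 12.5 CPM in rosette_LIM, and 3.46 and 4.15 CPM in LIF_2i. It rose 3.23-fold in rosette_LIM (1.69 ± 0.28, edgeR adjusted p = 0.00268) and 2.45-fold in primed_4d against LIF_2i (1.30 ± 0.29, edgeR adjusted p = 0.00299).

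Genes of the G2 and M phases that p53 lowers through p21 were given as a list of 12. In rosette_LIM against LIF_2i Cdkn1a was called lower. That call was lost with DESeq2, with no block for the cell line and without the R1 LIF_2i library. In that comparison 2 of the 12 were called, against 5.54% of all genes called. Ccnb2 (0.50 ± 0.11, edgeR adjusted p = 0.0174) and Cdk1 (0.37 ± 0.10, edgeR adjusted p = 0.0452) rose. The median of the 12 was 0.25, against 0.00 for all genes. The call of Cdk1 held in 7 of 16 alternatives, with adjusted p up to 0.488, and that of Ccnb2 in 13. In primed_4d against LIF_2i Cdkn1a was also called lower, a call that rested on R1. There Cdc25c (−0.89), Ccnb2 (−0.45) and Cdk1 (−0.38) fell and Bub1 (0.39) rose, 4 of 12 beside 37.9% of all genes called. In primed_4d against rosette_LIM 6 of 12 were called, all lower: Ccnb2 (−0.95), Cdk1 (−0.75), Cdc25c (−0.98), Birc5 (−0.45), Aurka (−0.46) and Plk1 (−0.43). Of all genes, 36.1% were called in that comparison and 19.0% were lower. Cdk1 had 259 and 244 CPM in primed_4d, 449 and 400 CPM in rosette_LIM, and 337 and 318 CPM in LIF_2i.

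**Figure D5:**
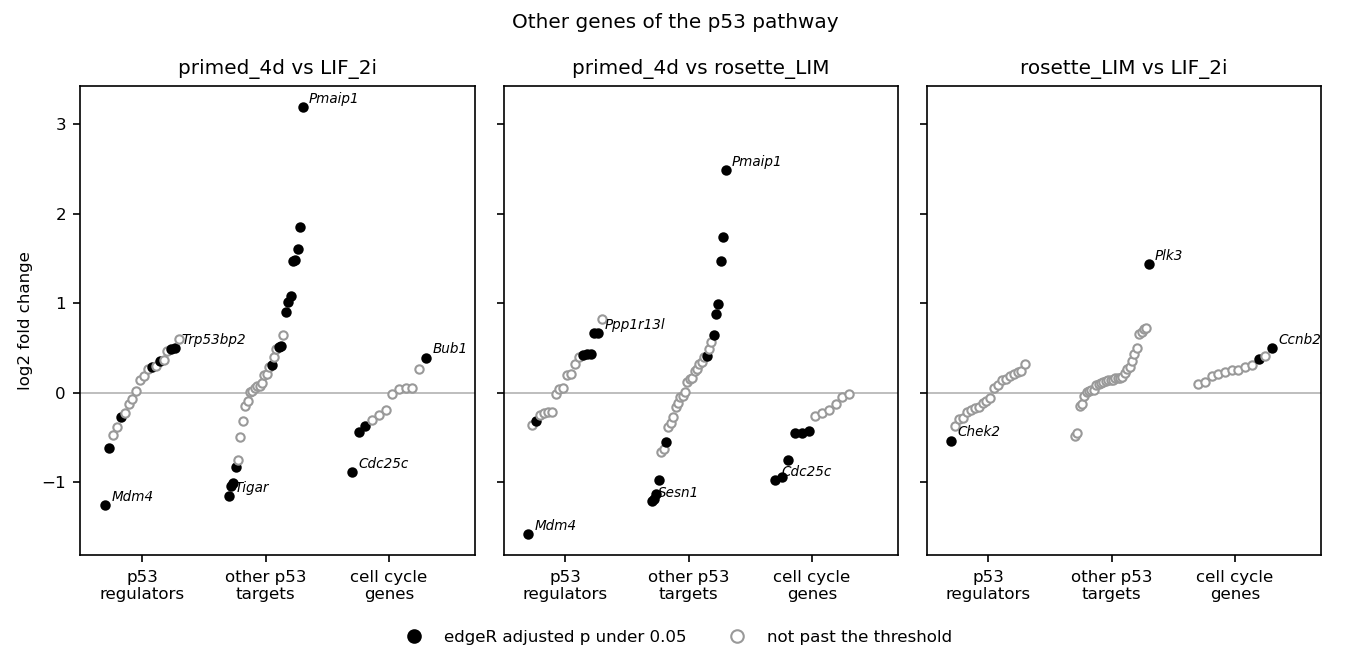
Log2 fold changes (vertical axis) of 20 p53 regulators, 32 other p53 targets and 12 cell cycle genes, sorted within each list, in 3 comparisons. Filled points passed edgeR's adjusted p of 0.05, with the farthest called gene at each end of a list named; Pmaip1 reaches 3.19 and Mdm4 −1.58, and in rosette_LIM against LIF_2i few points are filled.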

How the data were processed

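The authors deposited 1 table of expected counts per gene and well; the submitters' processing notes name BWA and mm10/GRCm38, with no version. The 1296 distinct values above 0 all match, to 2 decimals, whole UMI numbers corrected for collisions among 4096 tags. Wells are named by number, and no cell barcodes are given. ERCC spike-in rows (1.75% of counts) were left out. Values were summed over the 188 wells of a library and rounded, since wells are not replicates. edgeR 4.0.16 (TMM, filterByExpr with a minimum count of 10) fitted culture and line over 6 libraries with 12098 genes tested two-sided and Benjamini-Hochberg adjusted p under 0.05 called. The fit was run on simulated counts with a fixed spread and no line difference in the culture comparisons. Such counts cannot show how the fit handles the spread between these libraries. Line is a block because same-numbered libraries share the line; their deviations correlated by 0.109 to 0.259. With 1 library per line and culture, the fit leaves 2 residual degrees of freedom. The spread behind the p-values is therefore how the lines differ from culture to culture, mixed with noise of single libraries. No label names separate cultures of a line, so these cannot be told apart. An exact permutation test of 2 against 2 libraries cannot go below p = 0.333 and was not run. Alternatives were DESeq2 1.42.0, limma 3.58.1, other scalings, filters and wells, and leaving out each library. All members and lists were named by rule (every member, up to 10 called genes per list and comparison), and chosen with earlier results of these data known. Shares of wells and correlations have no test.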

Additional observations from a re-analysis of the deposited data

Results flagged for a closer look

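Perp moved in opposite directions in the lines between rosette_LIM and LIF_2i, beyond counting error. In IB10 it had 29 rosette_LIM UMIs and 79 LIF_2i UMIs, for a log2 ratio of −0.84 (counting interval −1.51 to −0.21). In R1 it had 71 rosette_LIM UMIs and 54 LIF_2i UMIs, for a log2 ratio of 0.68 (0.15 to 1.22). The difference between the lines was not tested, since each line has 1 library per culture.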

How the results depend on the processing

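Calls of the 9 genes kept their direction and their side of the threshold in 149 recomputed values and lost the threshold in 27; the cause was not tested. With no replicate block, 0 of the 9 genes and 281 of all genes were called in rosette_LIM against LIF_2i, against 2 and 670 with it; this fit has no value for IB10 against R1. DESeq2 called 0, 5 and 1 of the 9 and 279, 2775 and 2702 of all genes in rosette_LIM against LIF_2i, primed_4d against LIF_2i and primed_4d against rosette_LIM, where edgeR called 2, 6 and 3, and 670, 4581 and 4372. For IB10 against R1 it called 48 genes, and edgeR 91; giving each well the same weight called 43. With no filter on low counts, 1049 genes were called in rosette_LIM against LIF_2i, and 328 genes with 2 of the 9 in IB10 against R1. On leaving out 1 library, rosette_LIM against LIF_2i gave 0 to 4 calls among the 9 and 63 to 958 among all genes. Primed_4d against LIF_2i gave 2 to 6 and 2317 to 5454, and IB10 against R1 gave 0 to 2 and 0 to 379. Primed_4d against rosette_LIM gave 1 to 6 among the 9. Without the IB10 or the R1 LIF_2i library, that comparison gave 2 of the 9, and 3824 or 3640 of all genes. A fit without a library of a compared culture rests on 1 library there. The lowest counts of rosette_LIM and primed_4d against LIF_2i came without the R1 LIF_2i library.

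Values that had not passed turned round in 19 cases. Trp53 in primed_4d against LIF_2i was 0.00088 with RLE factors and with DESeq2. Perp in rosette_LIM against LIF_2i was 0.022 with no replicate block, 0.023 with each well weighing the same, and −0.65 to 0.55 on leaving out 1 library; it was −0.015 to 1.04 in primed_4d against rosette_LIM and −0.19 to 1.00 in primed_4d against LIF_2i. Cdkn1a in primed_4d against rosette_LIM ran from −0.14 to 1.02, Trp53inp1 from −0.032 to 0.35, Eda2r from −0.042 to 0.62 and Zmat3 from −0.0019 to 0.13 in rosette_LIM against LIF_2i. In IB10 against R1, Mdm2 ran from −0.087 to 0.061, Ccng1 from −0.13 to 0.097 (0.021 with each well weighing the same) and Eda2r from −0.22 to 0.19. Perp had 29 to 79 UMIs per library, the fewest of the 9 genes.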
